A study of Mus musculus with 7 samples.

Results

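The extracellular matrix is the protein mesh outside cells, and the genes described here encode its collagens, laminins and associated glycoproteins. They were chosen by symbol among protein-coding genes: every collagen chain, every laminin chain, the fibulins, fibrillins, nidogens and thrombospondins 1 to 4, the paired genes Thsd7a and Thsd7b, and Hspg2, Fn1, Sparc, Dcn and Lum. The rule found 74 genes of 55384 listed, of which 44 are collagens, 11 are laminins and 19 are other matrix genes. No expression value entered the rule, but it was chosen with earlier results of these data known.

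RNA was recovered from HA-tagged ribosomes of kisspeptin cells in the AVPV, the anteroventral periventricular nucleus at the front of the hypothalamus, whose kisspeptin drives the surge of hormone release before ovulation. All animals were C57BL/6 females of the genotype Kiss1Cre+/Rpl22HA+/+, in which Cre made in Kiss1 cells switches on an HA-tagged copy of the ribosomal protein Rpl22. Cre changes the DNA for good, so cells that expressed Kiss1 at any earlier time also carry the tag. Ovariectomized females with no estradiol gave the 4 libraries called GDX, estradiol-treated females gave the 3 called E2, and each library was a pool of 4 brains. The ages, the dose and length of treatment, and whether the E2 females were ovariectomized are not given in the labels. The comparison sets RNA recovered with the tagged ribosomes in E2 against that in GDX. No library of RNA from whole punches was analysed here.

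In the brain most matrix is laid down in thin sheets. The basement membrane around blood vessels is built from type IV collagen and laminins, crosslinked by nidogens and the proteoglycan perlecan, and is made by endothelial cells, mural cells and astrocyte endfeet. Fibrillar collagens of types I and III, decorin and lumican mark the fibroblasts of the meninges and of larger vessels, whereas neurons themselves express a smaller set that includes transmembrane collagens. In these libraries a level does not tell how many cells gave the RNA, how much each gave or how it came to be recovered.

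Library totals ran from 29207544 to 36213127 counts. The markers expected of the labelled cells were present in every library. Kiss1 stood at 44.5 to 56.0 CPM (counts scaled to the size of each library) in GDX replicates 1 to 3. It was at 114 CPM in GDX replicate 4 and at 379 to 485 CPM in E2. Th (tyrosine hydroxylase) stood at 235 to 331 CPM in GDX and 534 to 570 CPM in E2. Gad2, which makes GABA, stood at 673 to 797 and 956 to 1010 CPM. GDX replicate 4, and for some classes GDX replicate 1, stood apart in markers of other cells. All 16 tested fibroblast markers were highest in it, and their summed level was 635 CPM there, 114 to 162 CPM in the other GDX libraries and 132 to 156 CPM in E2. Dpt, a defining fibroblast gene, was too low to be tested and did not share this order. It was highest in GDX replicate 2 at 1.01 CPM, against 0.559 CPM in GDX replicate 4 and 0 in E2 replicate 2. The most abundant fibroblast markers were the growth factor gene Igf2 (237 CPM in GDX replicate 4 and 22.1 to 40.6 CPM elsewhere), Apod (105 CPM and 39.3 to 66.02 CPM) and Pdgfra (37.6 CPM and 17.7 to 30.2 CPM). Summed endothelial markers were 1110 CPM in GDX replicate 4, 808 CPM in GDX replicate 1, 497 and 540 CPM in the other GDX libraries and 303 to 473 CPM in E2. Of the most abundant, Slc2a1 (glucose transporter 1) and Flt1 (a VEGF receptor) were at 192 and 157 CPM in GDX replicate 4, at 59.4 to 156 and 31.3 to 108 CPM elsewhere, while Egfl7 was level at 54.5 to 65.7 CPM. Summed mural cell markers, of pericytes and smooth muscle, were 1096 CPM in GDX replicate 4, 252 to 496 CPM in the other GDX libraries and 179 to 222 CPM in E2, led by Rgs5, Myh11 and Acta2 at 199, 248 and 174 CPM in GDX replicate 4, against 41.1 to 148, 21.4 to 102 and 10.4 to 49.7 CPM elsewhere. Summed astrocyte markers were 3674 CPM in GDX replicate 4, 3045 CPM in GDX replicate 1, 1434 and 1439 CPM in the other GDX libraries and 1078 to 1271 CPM in E2, led by Gfap at 1765 and 1323 CPM in GDX replicates 4 and 1 and 163 to 356 CPM elsewhere. All 10 oligodendrocyte markers were highest in GDX replicate 1, where they summed to 5987 CPM, against 2707 to 3215 CPM elsewhere. Where leaving out GDX replicate 4 moved the fold change of a matrix gene by over 1.5 times, the value without it is given beside the first, and the part of these other cells in the results was not tested unless a value is given.

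Most matrix genes did not pass the test for a difference between E2 and GDX. Of 73 genes tested, 2 rose (Col25a1 among them) and 2 fell (Fbln2 and Thsd7b) at an adjusted p under 0.05 in the edgeR quasi-likelihood test, which is 5.48% of the genes tested, against 3.88% of all 18282 genes tested and 4.52% of the 15255 protein-coding ones. In each direction 2 calls compare with 2.55% of all genes called higher and 1.33% called lower. A share this near the background, from 4 genes, does not set the matrix genes apart. Before adjustment 16 matrix genes had p under 0.05 (21.9%, against 16.8% of all genes), and the unadjusted counts given for smaller groups below stand against that same share of all genes. Without GDX replicate 4, 4 of 72 tested genes rose and 2 fell, against 3.3% and 1.6% of all genes, the added rises being Lamb1 and Col11a1. DESeq2 called 5 higher and 4 lower, against 3.69% and 3.97% of all genes, and limma-voom 4 and 4, against 3.74% and 2.18%.

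Levels leaned towards GDX, and the size of this lean, and with 1 covariate its direction, changed with the fit. The log2 fold change of E2 over GDX was below 0 for 50 of 73 matrix genes (68.5%, against 49.2% of all genes tested), and its median was -0.386, against 0.00403 over all genes. Without GDX replicate 4 the median was -0.121, with 48 of 72 genes below 0 (50.2% of all genes), and without GDX replicates 1 and 4, an alternative chosen after the values were seen, it was -0.0307. With the score of endothelial and mural markers as a covariate the median turned to 0.234, with 3 genes called higher and 1 lower. Both marker scores were higher in every GDX library than in every E2 library. The endothelial score was 4.575 to 5.8 in GDX and 3.815 to 4.506 in E2, and the mural score 3.05 to 4.964 and 2.522 to 2.978. This fit therefore cannot separate estradiol treatment from the vascular score. The groups did not overlap for 10 matrix genes (13.7%), against 16.5% of all genes tested. The 6 with every E2 library above every GDX library included Col11a1, Col19a1, Col9a3, Fbn2 and Col25a1 (8.43% of all genes had this order), and the 4 with every E2 library below were Col23a1, Lamb2, Fbln2 and Thsd7b (8.06% of all genes).

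**Figure D1:**
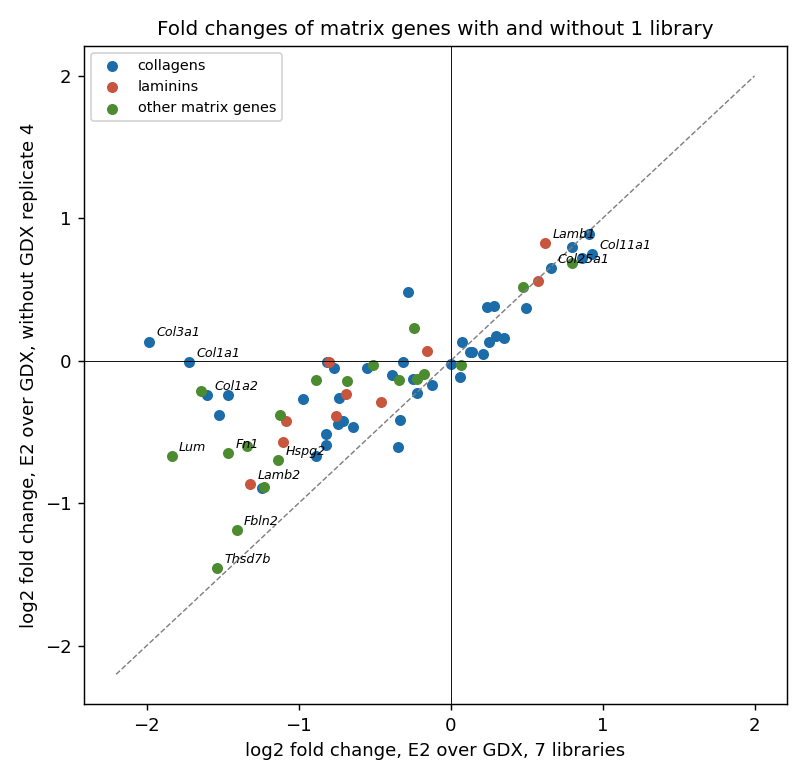
Log2 fold change (E2 over GDX) of 71 matrix genes from all 7 libraries on the x axis and from the 6 libraries without GDX replicate 4 on the y axis, with a dashed line where both are equal. Col3a1, Col1a1 and Col1a2 lie far left of the line and close to 0 on the y axis, while Thsd7b, Fbln2 and Col25a1 lie near the line.

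Thsd7b encodes a transmembrane protein with thrombospondin type repeats and was the matrix gene with the smallest adjusted p. Its gene (ENSMUSG00000042581) spans chr1:129273302-130219278 on the plus strand of GRCm38. Levels were 49.8, 46.8, 44.2 and 57.3 CPM in GDX replicates 1 to 4 and 17.6, 14.5 and 19.2 CPM in E2 replicates 1 to 3. All GDX libraries were more than 2-fold above all E2 libraries, and the GDX libraries lay close together. The group means were 49.5 ± 5.68 CPM (SD, n = 4) and 17.1 ± 2.39 CPM (SD, n = 3), 2.90-fold higher in GDX, with a log2 fold change of -1.53 ± 0.13 (SE) and an edgeR adjusted p of 2.94e-05. Under 19 alternatives its log2 fold change stayed between -1.63 and -1.35, and it was called in each of the 19. Its near relative Thsd7a was at 23.3 to 34.9 CPM in GDX and 24.9 to 29.1 CPM in E2 and was not called (log2 fold change -0.18 ± 0.14, edgeR adjusted p = 0.585, and -0.09 ± 0.13 without GDX replicate 4). Whether the fold changes of the 2 relatives differ from each other was not tested.

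Col25a1 encodes a transmembrane collagen made by neurons, known for its shed ectodomain in amyloid plaques and for its part in the innervation of muscle. The gene (ENSMUSG00000058897) lies at chr3:130131501-130599877, plus strand. It stood at 51.2, 58.6, 42.6 and 49.9 CPM in GDX replicates 1 to 4 and at 92.6, 70.2 and 76.4 CPM in E2 replicates 1 to 3. Every E2 library was above every GDX library, and GDX replicates 1 and 4 were in the middle of their group. The mean rose 1.58-fold from 50.6 ± 6.53 CPM in GDX (SD, n = 4) to 79.8 ± 11.6 CPM in E2 (SD, n = 3) (log2 fold change 0.66 ± 0.12, edgeR adjusted p = 0.00925). Without GDX replicate 4 the log2 fold change was 0.65. Without E2 replicate 1 it was 0.54 and the call was lost (edgeR adjusted p = 0.0696). The call was also lost with the score of endothelial and mural markers as a covariate (0.61, edgeR adjusted p = 0.104). This score itself separated the groups.

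Fbln2 encodes fibulin 2, a glycoprotein that binds fibronectin, laminins and elastic fibres. Its gene (ENSMUSG00000064080) lies at chr6:91212455-91272540, plus strand. Levels were 10.4, 13.5, 8.35 and 17.8 CPM in GDX replicates 1 to 4 and 3.33, 6.06 and 4.76 CPM in E2 replicates 1 to 3. GDX replicate 4 was the highest library, and the lowest GDX library was still above the highest E2 library. The mean fell from 12.5 ± 4.10 CPM in GDX (SD, n = 4) to 4.72 ± 1.37 CPM in E2 (SD, n = 3), or by 1.41 ± 0.29 on the log2 scale (edgeR adjusted p = 0.0187). Without GDX replicate 4 it fell by 1.19 on the log2 scale and was still called. The score of endothelial and mural markers itself separated the groups. With it as a covariate the log2 fold change was -0.80 and the call was lost (edgeR adjusted p = 0.186). It was also lost without GDX replicate 2 (0.0508) and without E2 replicate 1 or 3 (0.0954 for each).

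**Figure D2:**
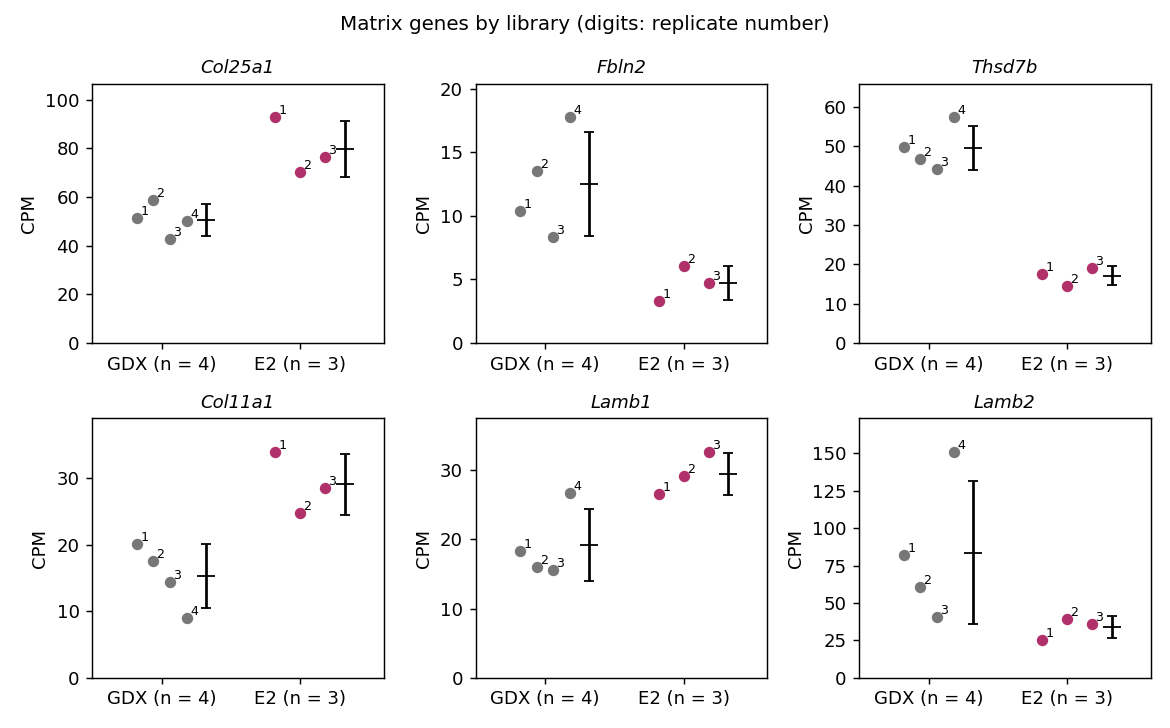
CPM in each library (points, with the replicate number) and the group mean with its SD (bars) for Col25a1, Fbln2, Thsd7b, Col11a1, Lamb1 and Lamb2, each panel with its own axis from 0. The groups overlap only in the Lamb1 panel, where GDX replicate 4 (26.8 CPM) reaches the lowest E2 library (26.6 CPM), and in the Lamb2 panel the GDX libraries are spread from 40.4 to 151 CPM.

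The RefSeq start regions of Thsd7b, Col25a1 and Fbln2 are shown because these genes changed and the RefSeq table (GRCm38.p6) holds them, each as 250 bases before to 50 bases after the start, read 5′ to 3′ on the gene's strand. The Thsd7b window is chr1:129273054-129273353, the Col25a1 window is chr3:130180595-130180894 and the Fbln2 window is chr6:91212514-91212813. Capitals mark a repeated 16-base unit in Col25a1 and the GC boxes in Fbln2.
Thsd7b: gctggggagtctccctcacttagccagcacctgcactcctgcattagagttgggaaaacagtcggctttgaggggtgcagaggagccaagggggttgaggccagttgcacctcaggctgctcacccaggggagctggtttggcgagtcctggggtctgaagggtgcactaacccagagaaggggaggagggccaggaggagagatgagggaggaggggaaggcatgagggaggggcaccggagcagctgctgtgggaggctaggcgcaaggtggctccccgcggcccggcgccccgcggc
Col25a1: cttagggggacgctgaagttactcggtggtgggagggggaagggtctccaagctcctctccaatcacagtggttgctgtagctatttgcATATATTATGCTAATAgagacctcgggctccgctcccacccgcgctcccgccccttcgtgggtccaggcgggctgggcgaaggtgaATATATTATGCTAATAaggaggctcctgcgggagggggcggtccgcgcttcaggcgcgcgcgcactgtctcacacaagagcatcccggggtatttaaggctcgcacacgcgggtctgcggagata
Fbln2: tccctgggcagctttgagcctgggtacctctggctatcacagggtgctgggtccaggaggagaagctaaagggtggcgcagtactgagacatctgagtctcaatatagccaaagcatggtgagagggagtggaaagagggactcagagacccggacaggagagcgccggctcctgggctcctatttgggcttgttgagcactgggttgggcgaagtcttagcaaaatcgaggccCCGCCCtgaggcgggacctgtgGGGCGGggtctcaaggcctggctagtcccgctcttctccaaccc

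Each window was searched on both strands for the full estrogen response element, its half-site GGTCA, the AP-1 site TGANTCA, the GC box GGGCGG and the TATA box TATAAA. Half-sites also count where they lie inside a full element. The 3 windows held no match to the first 3 or to TATAAA. The GC box was found 2 times each in the Col25a1 and Fbln2 windows and 0 times in that of Thsd7b. Of 32851 promoters in the table, 0.07% held the full element, 40.5% the half-site, 7.81% the AP-1 site, 35.7% a GC box and 13.6% TATAAA. Of 59 promoters of 53 matrix genes in the table, 0 held the full element, 17 the half-site (28.8%), 1 the AP-1 site (1.69%), 35 a GC box (59.3%) and 6 TATAAA (10.2%). In the Col25a1 window the unit ATATATTATGCTAATA begins at bases 90 and 176, counted from the 5′ end, and no other promoter of the 32851 holds that unit, while 2.4% hold some exact repeat of that length. The Col25a1 and Fbln2 windows lie inside the longer GENCODE genes, which begin further upstream, while the Thsd7b window spans the start of its GENCODE gene.

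Fibrillar collagens, which form the ropes of connective tissue, showed no called change among 11 genes (edgeR; 2 at unadjusted p under 0.05, and 1 call each with DESeq2 and limma-voom). Type I collagen, the main fibre of skin and bone, comes from Col1a1 and Col1a2. Col1a1 was at 7.88, 7.88, 4.70 and 68.7 CPM in GDX replicates 1 to 4 and 6.81, 7.68 and 5.85 CPM in E2. Col1a2 was at 18.0, 17.6, 12.9 and 117 CPM in GDX and 13.1, 15.7 and 12.2 CPM in E2. Col3a1, of the thin fibres around vessels, was at 4.17, 7.51, 1.68 and 63.6 CPM in GDX and 3.76, 6.76 and 4.10 CPM in E2. In all 3 genes GDX replicate 4 was far above the other 6 libraries, among which the groups overlapped. Their log2 fold changes were -1.72 ± 1.14, -1.60 ± 0.97 and -1.98 ± 1.42 with that library, and -0.01 ± 0.24, -0.24 ± 0.16 and 0.13 ± 0.48 without it.

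The cartilage-type fibrillar genes had another pattern. Col11a1, whose product sets fibril width, was at 20.2, 17.5, 14.3 and 9.02 CPM in GDX replicates 1 to 4 and 33.9, 24.7 and 28.6 CPM in E2. All E2 libraries were above all GDX libraries, and GDX replicate 4 was the lowest of the 7. The log2 fold change was 0.93 ± 0.24 (edgeR adjusted p = 0.0761), and without GDX replicate 4 it was 0.75 ± 0.15 and called (edgeR adjusted p = 0.00788). Col2a1, the main cartilage collagen, was likewise lowest in GDX replicate 4 at 2.57 CPM, with 3.72 to 4.89 CPM in the other GDX libraries and 4.55 to 9.22 CPM in E2, and was not called (0.87 ± 0.29). Col11a2, the highest of the fibrillar genes per length, was at 23.8 to 38.7 CPM in GDX and 25.6 to 33.2 CPM in E2, with a log2 fold change of 0.00 ± 0.16, and of -0.02 ± 0.17 without GDX replicate 4.

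Network collagens form sheets, and the type IV chains are the core of the basement membrane. None of 8 tested was called by edgeR, 2 had unadjusted p under 0.05, and Col4a1 was the only call of DESeq2 and of limma-voom. Col4a1 was at 77.3, 63.8, 50 and 97.1 CPM in GDX replicates 1 to 4 and 41.0, 43.8 and 53.9 CPM in E2, so that 1 GDX library lay within the E2 range. Its log2 fold change was -0.64 ± 0.22 (edgeR adjusted p = 0.184), and -0.46 ± 0.16 without GDX replicate 4. Col4a2 was at 107.7, 108.5, 84.9 and 98.3 CPM in GDX and 98.9, 70.0 and 88.5 CPM in E2, with groups that overlapped and a log2 fold change of -0.22 ± 0.12. The minor chain Col4a6 was at 2.56, 1.41, 1.04 and 10.6 CPM in GDX and 1.35 to 1.51 CPM in E2, again with GDX replicate 4 alone above the rest, and its log2 fold change went from -1.47 ± 0.82 to -0.24 ± 0.43 without that library. Col10a1, of growth-plate cartilage, was too low to be tested, at 0 to 0.33 CPM.

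Col4a1 and Col4a2 are shown together because they are transcribed head to head from chromosome 8 with starts 21 bases apart, yet their order across libraries was not the same: Col4a1 was highest in GDX replicate 4 and Col4a2 in GDX replicate 2. Capitals mark the 78 bases that the RefSeq windows of both genes share, read on opposite strands, for Col4a1 from chr8:11312777-11313076 on the minus strand and for Col4a2 from chr8:11312555-11312854 on the plus strand.
Col4a1: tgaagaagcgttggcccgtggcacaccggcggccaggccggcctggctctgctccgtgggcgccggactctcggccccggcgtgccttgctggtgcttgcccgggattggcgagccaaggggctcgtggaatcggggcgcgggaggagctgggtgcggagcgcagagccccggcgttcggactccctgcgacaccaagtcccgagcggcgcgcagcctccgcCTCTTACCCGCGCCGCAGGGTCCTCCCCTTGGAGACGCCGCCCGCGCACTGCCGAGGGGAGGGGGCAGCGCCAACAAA
Col4a2: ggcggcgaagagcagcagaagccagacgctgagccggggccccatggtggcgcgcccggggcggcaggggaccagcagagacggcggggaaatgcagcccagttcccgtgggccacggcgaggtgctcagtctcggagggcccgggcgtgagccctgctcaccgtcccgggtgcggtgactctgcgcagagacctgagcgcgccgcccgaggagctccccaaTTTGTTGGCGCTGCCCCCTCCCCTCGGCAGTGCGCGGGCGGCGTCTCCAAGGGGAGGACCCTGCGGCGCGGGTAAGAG
Col4a1 held 1 GC box and Col4a2 held 3, and neither held a match to the other motifs searched. The annotated exons of these genes share 22 bases on opposite strands, and since the libraries carry no strand, reads there cannot be assigned to one of them.

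Among the 9 microfibril and anchoring collagens none was called, none had an unadjusted p under 0.05 and neither DESeq2 nor limma-voom called any. Col6a1, of the beaded filaments around cells, was at 28.1, 17.5, 8.74 and 25.4 CPM in GDX and 15.01, 20.3 and 35.3 CPM in E2. Col6a5 was at 27.6, 12.7, 12.7 and 34.2 CPM in GDX and 10.9, 11.7 and 14.5 CPM in E2, high in GDX replicates 1 and 4 and level elsewhere. The log2 fold changes were 0.24 ± 0.47 and -0.82 ± 0.39, and without GDX replicate 4 they were 0.38 ± 0.57 and -0.52 ± 0.32.

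FACIT collagens decorate the surface of other fibrils. None of 9 was called by edgeR, DESeq2 or limma-voom, and 1 had an unadjusted p under 0.05. The highest per length were the type IX chains Col9a2, at 19.6 to 26.3 CPM in GDX and 22.6 to 27.0 CPM in E2, and Col9a3, at 15.9, 14.6, 14.8 and 10.3 CPM in GDX and 18.0, 16.6 and 16.7 CPM in E2. Col9a3 was lowest in GDX replicate 4 and its groups did not overlap, but the log2 fold change of 0.30 ± 0.16 did not pass (edgeR adjusted p = 0.38) and was 0.18 ± 0.13 without that library. That of Col9a2 was 0.08 ± 0.12 and, without it, 0.13 ± 0.13. Exons of Col9a3 share 234 bases with Tcfl5 on the opposite strand, so its counts are uncertain by that much.

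Of the other transmembrane collagens, Col23a1 was at 8.34, 5.37, 6.48 and 12.8 CPM in GDX and 5.24, 5.01 and 4.59 CPM in E2, with groups that did not overlap and a log2 fold change of -0.74 ± 0.28 (edgeR adjusted p = 0.202), or -0.45 ± 0.23 without GDX replicate 4. Col13a1, a collagen of the neuromuscular junction, was at 0.736 to 0.973 CPM in GDX replicates 1 to 3, 4.91 CPM in GDX replicate 4 and 0.20 to 1.22 CPM in E2. Leaving out that library moved its log2 fold change from -1.52 ± 0.84 to -0.38 ± 0.65. The multiplexins Col15a1 and Col18a1, whose ends yield vessel-growth inhibitors, had log2 fold changes of 0.14 ± 0.28 and -0.31 ± 0.28, and of 0.06 ± 0.31 and -0.01 ± 0.17 without GDX replicate 4.

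Laminins are trimers of an alpha, a beta and a gamma chain. The 5 alpha chains were all highest in GDX replicate 4, all had log2 fold changes below 0, and none was called or had an unadjusted p under 0.05, with 0 calls also from DESeq2 and limma-voom. Lama2, of the laminins of vessel walls and muscle, was at 17.6, 11.9, 8.13 and 34.96 CPM in GDX and 6.84, 7.19 and 11.4 CPM in E2. GDX replicate 3 lay within the E2 range, and the log2 fold change went from -1.10 ± 0.53 to -0.57 ± 0.29 without GDX replicate 4. Lama5, a broad epithelial and endothelial chain, was at 32.8, 26.9, 21.4 and 45.3 CPM in GDX and 26.9, 25.3 and 32.8 CPM in E2. Its value went from -0.16 ± 0.24 to 0.07 ± 0.15 on the same scale.

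The 2 main beta chains pointed in opposite directions. Lamb2, the beta chain of vessels and synapses, was at 82.1, 60.8, 40.4 and 151 CPM in GDX replicates 1 to 4 and 25.3, 39.6 and 35.8 CPM in E2. The GDX libraries differed widely among themselves, and the lowest was just above the highest E2 library. Its log2 fold change was -1.32 ± 0.49 (edgeR adjusted p = 0.263), and -0.87 ± 0.31 without GDX replicate 4. Of 19 alternatives only limma-voom called Lamb2 (limma-voom adjusted p = 0.0358). Lamb1, the other broad beta chain, was at 18.3, 16.0, 15.5 and 26.8 CPM in GDX and 26.6, 29.2 and 32.6 CPM in E2. Here GDX replicates 1 to 3 were close together below the E2 libraries, and GDX replicate 4 alone was level with the lowest of them. The log2 fold change was 0.62 ± 0.18 (edgeR adjusted p = 0.0974) with that library and 0.83 ± 0.12 without it, where Lamb1 was called (edgeR adjusted p = 0.000724). Lamb1 was called in 8 of 19 alternatives, DESeq2 and limma-voom among them. Whether the 2 chains' fold changes differ from each other was not tested.

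Lamc1, the gamma chain of most laminins, was at 47.5, 41.1, 29.2 and 84.6 CPM in GDX and 27.8, 29.2 and 33.1 CPM in E2, and Lamc3 was at 8.81, 4.76, 4.50 and 23.5 CPM in GDX and 3.98, 7.58 and 6.44 CPM in E2. Their log2 fold changes were -0.75 ± 0.36 and -0.80 ± 0.65, and without GDX replicate 4 they were -0.39 ± 0.16 and -0.01 ± 0.31. The linkers of the basement membrane had the same order of the GDX libraries as Lamc1, with replicate 4 first, then 1, 2 and 3. Hspg2 (perlecan) was at 39.7, 25.2, 20.9 and 69.0 CPM in GDX and 13.8, 14.8 and 24.4 CPM in E2, and Nid1 (nidogen 1) was at 11.9, 10.3, 6.68 and 35.7 CPM in GDX and 6.10, 7.45 and 8.69 CPM in E2. Neither was called (log2 fold changes -1.13 ± 0.49 and -1.12 ± 0.61), and without GDX replicate 4 the values were -0.70 ± 0.32 and -0.38 ± 0.23. None of the 3 genes of this group had an unadjusted p under 0.05 or was called by DESeq2 or limma-voom.

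Beside Fbln2, the fibulin genes Fbln1 and Fbln5, whose products bind basement membrane and elastin, were both highest in GDX replicate 4. Fbln1 was at 9.08, 7.28, 5.25 and 26.5 CPM in GDX and 4.50, 3.46 and 6.31 CPM in E2, and Fbln5 was at 8.15, 12.9, 9.01 and 27.9 CPM in GDX and 6.66, 8.93 and 11.6 CPM in E2. Their log2 fold changes of -1.34 ± 0.61 and -0.68 ± 0.47 became -0.60 ± 0.27 and -0.14 ± 0.23 without that library. Fbn2, a fibrillin of developing elastic fibres, went the other way, at 2.48 to 3.69 CPM in GDX and 5.19 to 6.41 CPM in E2 (0.80 ± 0.23, edgeR adjusted p = 0.0937), called with DESeq2 and not with edgeR. Fbln7 was lower and likewise called only with DESeq2 of these 2 (-1.23 ± 0.41, edgeR adjusted p = 0.141, and -0.88 ± 0.36 without GDX replicate 4). With no low-count filter edgeR called it too. Of the 6 fibulins and fibrillins DESeq2 called 1 higher and 2 lower, limma-voom 1 lower, and 3 had unadjusted p under 0.05. For Fbn1, 20.1% of the exon bases overlap Gm9913 on the opposite strand, so its counts are uncertain. Exons of Lama2, Lamc3, Thbs3 and Fn1 share 631, 382, 318 and 292 bases with genes on the opposite strand, which makes their counts uncertain by that much. Among the thrombospondins, secreted proteins that astrocytes use to promote synapses, Thbs3 was the highest per length and was at 12.5 to 19.9 CPM in GDX and 13.2 to 18.7 CPM in E2 (0.07 ± 0.18, and -0.03 ± 0.16 without GDX replicate 4).

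Fn1, which encodes the cell adhesion protein fibronectin, was at 111, 89.4, 52.0 and 340 CPM in GDX and 45.0, 62.4 and 53.7 CPM in E2, with a log2 fold change of -1.46 ± 0.72 and of -0.65 ± 0.32 without GDX replicate 4. Decorin and lumican are small proteoglycans that coat collagen fibrils. Dcn was at 3.98, 8.59, 4.04 and 42.7 CPM in GDX and 4.56 to 4.88 CPM in E2, and Lum was at 0.71, 1.91, 0.93 and 7.04 CPM in GDX and 0.69 to 0.77 CPM in E2. Sparc, a collagen-binding protein that glia and vessels secrete, was at 484, 473, 468 and 599 CPM in GDX and 395, 433 and 478 CPM in E2, so that GDX replicate 4 alone was high and the rest lay within a narrow range. The log2 fold changes of Dcn, Lum and Sparc were -1.64 ± 1.02, -1.83 ± 0.79 and -0.22 ± 0.10 with GDX replicate 4, and -0.21 ± 0.30, -0.67 ± 0.54 and -0.13 ± 0.08 without it. None of these 4 genes was called by edgeR with its low-count filter, by DESeq2 or by limma-voom, and 2 had unadjusted p under 0.05. With no low-count filter edgeR called Lum (edgeR adjusted p = 0.00165).

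The library with the highest level was the same for most of the genes. Of 73 tested matrix genes, 44 were highest in GDX replicate 4 (60.3%), against 21.6% of all genes tested. In 33 of them it was at least 2-fold above the median of the other 6 libraries (45.2%, against 6.09%), and in 8 at least 5-fold (0.837% of all genes). Those 8 were Col3a1 (15.4-fold), Col1a1 (9.48), Lum (9.21), Dcn (9.09), Col1a2 (8.16), Col4a6 (7.61), Col13a1 (6.30) and Fn1 (5.85). Of the 29 others, 21 were highest in an E2 library, 6 in GDX replicate 2, 2 in GDX replicate 1 and 0 in GDX replicate 3. The labels number GDX replicate 4 apart from the other 6 libraries, which run consecutively, and do not say why.

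**Figure D3:**
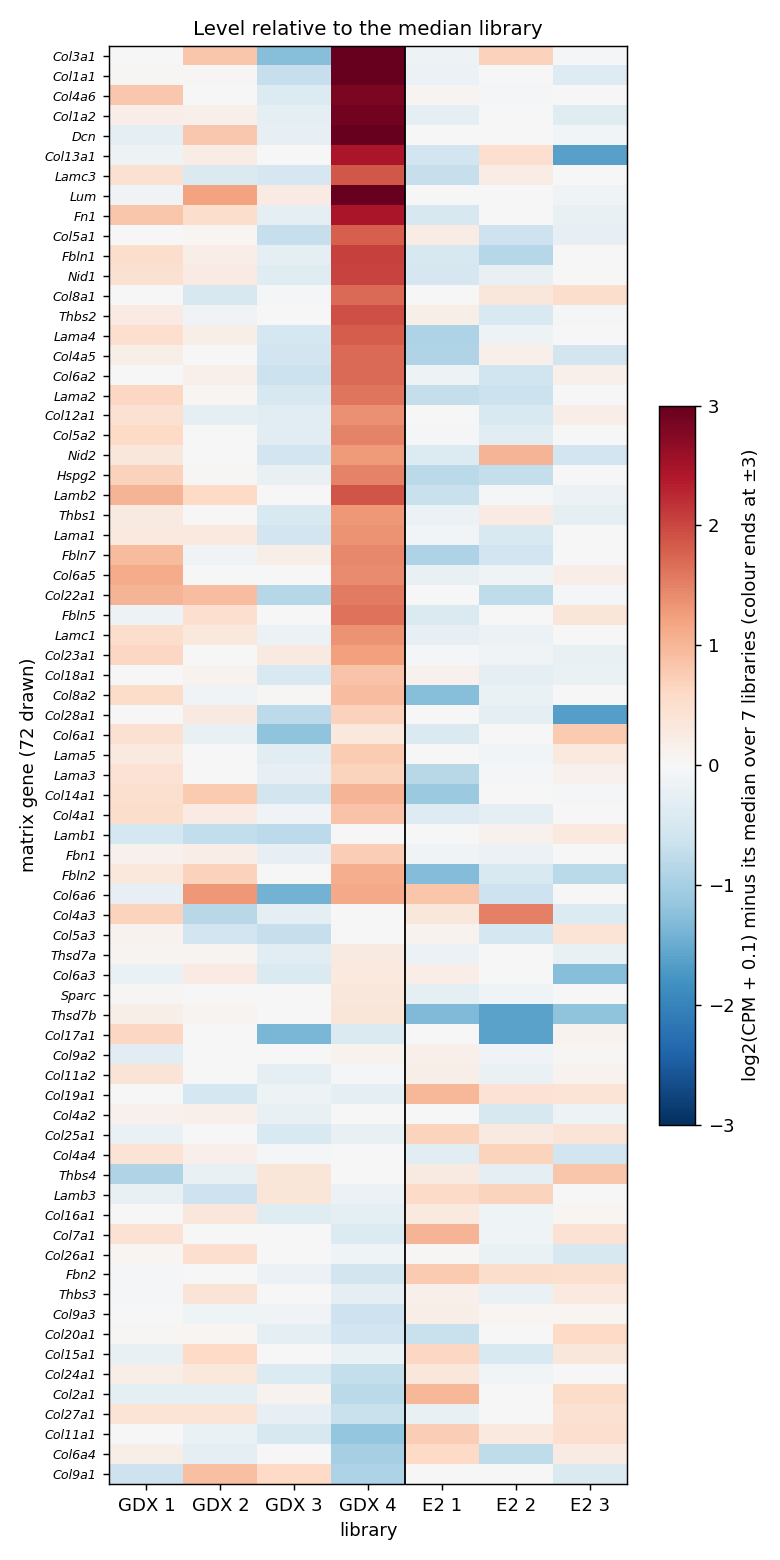
Heat map of 72 of the 73 tested matrix genes (rows) in the 7 libraries (columns), with colour for log2(CPM + 0.1) minus the gene's median over libraries, rows ordered by the ratio of GDX replicate 4 to the mean of GDX replicates 2 and 3. The GDX 4 column is the strongest in the upper part, from Col3a1 and Col1a1 down, and the bottom rows, such as Col11a1 and Col9a1, are lowest there.

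Levels in GDX replicates 1 and 4 were set against the others by ratios to the mean of GDX replicates 2 and 3 that were chosen after the values were seen. The median ratio of the fibroblast markers was 6.27 in GDX replicate 4 and 1.05 in GDX replicate 1, that of the endothelial markers was 2.31 and 1.55, and that of the mural markers was 2.97 and 1.53. Pan-neuronal markers had medians of 0.898 and 0.91, and all genes tested 0.998 and 0.992. The matrix genes had medians of 1.75 and 1.22. A gene highest in GDX replicate 4 and next highest in GDX replicate 1 was found in 15 of 16 endothelial markers, 8 of 15 mural markers, 8 of 12 astrocyte markers, 3 of 16 fibroblast markers, 0 of 15 pan-neuronal markers and 9.16% of all genes tested.

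That order held for 26 matrix genes (35.6%): Col1a2, Col5a2, Col4a1, Col4a5, Col4a6, Col8a2, Col6a5, Col12a1, Col22a1, Col23a1, Lama2, Lama3, Lama4, Lamb2, Lamc1, Lamc3, Hspg2, Nid1, Fbln1, Fbln7, Thbs1, Thbs2, Thsd7a, Thsd7b, Fn1 and Sparc. It took in 6 of 11 laminins and 10 of 43 tested collagens. Another 18 genes were highest in GDX replicate 4 with some other library next, among them Col1a1, Col3a1, Dcn and Lum. The ratios of Col3a1 and Dcn were high in GDX replicate 4 (13.85 and 6.76) and under 1 in GDX replicate 1 (0.908 and 0.631). Thsd7b has this order too, with ratios of only 1.26 and 1.095. The order alone does not give the genes' sources, which were not tested.

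Other matrix genes did not follow these libraries. Col25a1 had ratios of 0.986 in GDX replicate 4 and 1.01 in GDX replicate 1, within the ranges of the pan-neuronal markers (0.799 to 1.24 and 0.839 to 1.22) and of the microglia markers (0.616 to 1.01 and 0.904 to 1.64), and near the medians of all genes. Levels in GDX replicate 4 were lowest relative to the mean of GDX replicates 2 and 3 for Col9a1 (0.266), Col6a4 (0.530), Col11a1 (0.567), Col27a1 (0.580), Col2a1 (0.597) and Col24a1 (0.597). Of these, Col9a1 had only 15 to 52 counts per library, and its ratio was also low in GDX replicate 1 (0.347). In which cells of the punch these genes are translated was not tested.

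**Figure D4:**
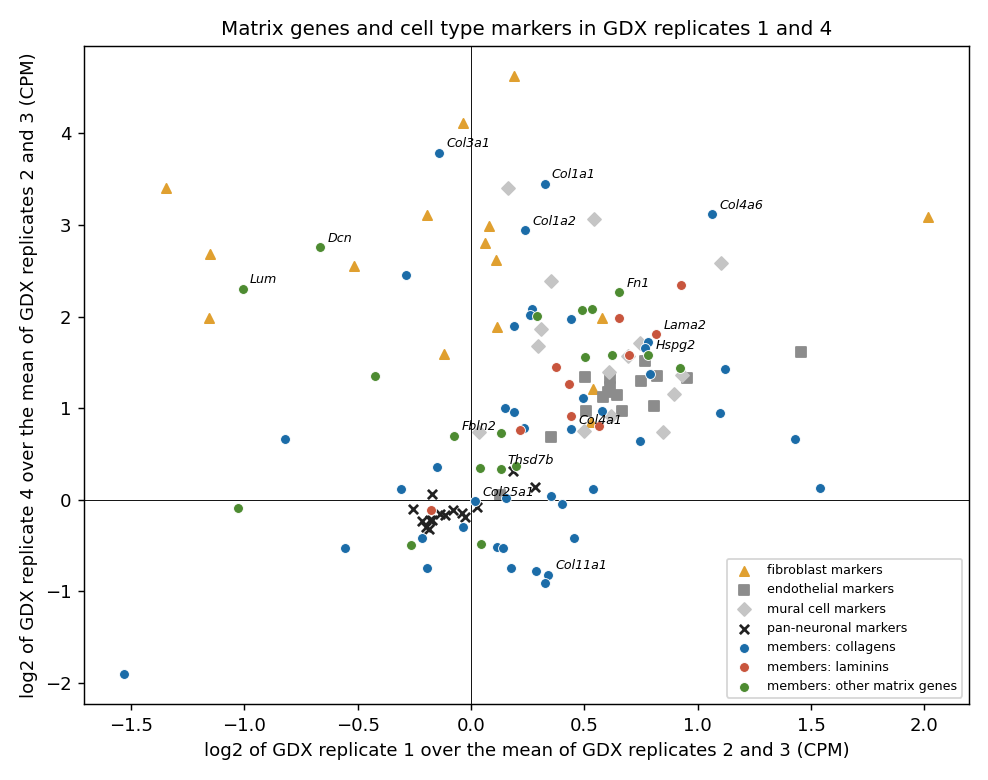
Log2 of each gene's level in GDX replicate 1 (x axis) and GDX replicate 4 (y axis) over its mean in GDX replicates 2 and 3, for matrix genes (circles) and for marker genes of 4 cell classes. Most fibroblast markers, Col3a1 and Col1a1 lie high near or left of 0 on the x axis, most endothelial markers and Hspg2 lie up and to the right, and Col25a1 and the pan-neuronal markers lie near 0 on both axes.

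Each marker list was scored per library as its mean log2 CPM (prior count 2). The groups were compared by an exact permutation test, two-sided, over all 35 ways to assign the 7 libraries, which cannot give a p below 0.0286. E2 minus GDX was -0.879 for endothelial markers, with exact p = 0.0571 and 0.143 after Benjamini-Hochberg adjustment over 10 lists. It was -1.07 for mural markers (exact p = 0.0571) and -0.503 for fibroblast markers (exact p = 0.857), and the last was 0.141 without GDX replicate 4. It was -0.742 for astrocyte markers, all 12 of which had log2 fold changes below 0, and -0.775 for ependymal and tanycyte markers (exact p = 0.0857 for each), among which Rarres2 and Cfap126 were called lower (edgeR adjusted p = 0.0356 and 0.035). All 16 endothelial markers had log2 fold changes below 0, with a median of -1.04 and, without GDX replicate 4, of -0.711. For the fibroblast markers the median went from -1.24 to 0.0677.

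Levels between genes were compared as CPM per kilobase of exon, as means over the 7 libraries. Sparc was first at 125.6, which was 8.86 times the next gene, Col4a2, at 14.2. Lamb2 (10.2), Fn1 (9.21), Col4a1 (8.17) and Col9a2 (7.80) came next, followed by Lamc1 (5.05), Col6a1 (4.90) and Col25a1 (4.87). Without GDX replicate 4 the order after Col4a2 was Lamb2 (7.78), Col9a2 (7.68), Col4a1 (7.37), Fn1 (5.90), Col25a1 (5.04), Col6a1 (4.76), Col11a2 (4.43) and Lamc1 (4.19). Thsd7b stood at 2.93. Mean levels, in CPM, were under 1 for 6 of the 74 genes, 1 to 10 for 36, 10 to 100 for 30 and above that for Fn1 and Sparc. The mean of Fn1 was 107.6 CPM with GDX replicate 4 and 68.9 CPM without it, which leaves Sparc alone above 100 CPM.

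The machinery around the matrix was followed with 7 lists of other genes, 181 genes in all, of which 167 were tested. By edgeR 4 rose and 0 fell (2.40%, against 3.88% of all genes), and 35 had an unadjusted p under 0.05 on the lower side (21%, against 8.89% of all genes) and 11 on the higher side (6.59%, against 7.88%). DESeq2 called 7 higher and 17 lower (against 3.69% and 3.97% of all genes), limma-voom 6 and 6 (against 3.74% and 2.18%). The DESeq2 and limma-voom counts given below for single lists stand against these shares. Without GDX replicate 4, 10 rose and 3 fell, against 3.3% and 1.6% of all genes. The 4 that rose were Nell2, Spock2, Hapln4 and Has3. Nell2, a secreted glycoprotein that guides axons, rose 1.91-fold from 264 ± 9.59 CPM in GDX (SD, n = 4) to 505 ± 18.9 CPM in E2 (SD, n = 3) (log2 fold change 0.94 ± 0.06, edgeR adjusted p = 6e-06). Spock2 (testican 2), a brain proteoglycan, rose from 1619 ± 85.5 to 2066 ± 52.4 CPM (0.35 ± 0.06, edgeR adjusted p = 0.00799), and the link protein gene Hapln4, of nets around axon terminals, rose from 91.8 ± 9.32 to 123 ± 4.28 CPM (0.42 ± 0.09, edgeR adjusted p = 0.0183). Has3, which makes hyaluronan, rose from 1.92 ± 0.641 to 4.58 ± 0.80 CPM (1.26 ± 0.32) and sat at the threshold (edgeR adjusted p = 0.0499).

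Genes that fold, cut and bind collagen did not pass. Among 26 collagen folding and modifying enzymes edgeR called 0, with 7 at unadjusted p under 0.05, 3 DESeq2 calls and 1 of limma-voom. The prolyl hydroxylase genes P4ha1 and P4ha2, needed for a stable collagen helix, had log2 fold changes of -0.02 ± 0.11 and -0.25 ± 0.10, and without GDX replicate 4 of 0.04 ± 0.10 and -0.24 ± 0.11. None of 7 crosslinking enzymes was called by any of these tools or had unadjusted p under 0.05, and Lox was at 4.36 CPM in GDX replicate 4 and at 0 to 0.87 CPM in the other libraries. Loxl1, which crosslinks elastin, was at 7.12, 8.35, 7.69 and 13.99 CPM in GDX and 5.06, 6.26 and 8.46 CPM in E2 (-0.50 ± 0.27, and -0.23 ± 0.22 without GDX replicate 4). Of 29 integrins and other matrix receptors edgeR called 0, with 11 at unadjusted p under 0.05, 6 DESeq2 calls and 2 of limma-voom. Itga1, a collagen and laminin receptor of vessels, was at 14.4, 10.4, 5.99 and 24.0 CPM in GDX and 4.35, 5.18 and 5.62 CPM in E2 (-1.44 ± 0.43, edgeR adjusted p = 0.131). Its GDX libraries had the same order as those of Lamc1, Hspg2 and Nid1. Itga2b, the fibrinogen receptor chain of platelets, was at 3.97 to 6.52 CPM in GDX and 4.00 to 4.38 CPM in E2 (-0.35 ± 0.23).

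Of 30 matrix proteases and inhibitors edgeR called 0, with 10 at unadjusted p under 0.05, 1 DESeq2 call and 0 of limma-voom. Mmp2 and Mmp9, gelatinases that cut type IV collagen, had log2 fold changes of -0.65 ± 0.20 (edgeR adjusted p = 0.116) and 0.59 ± 0.32. The lecticans Acan and Bcan, which fill the space around neurons, had -0.95 ± 0.66 and -0.15 ± 0.14, and the heparan sulfate proteoglycan gene Agrn had -0.07 ± 0.09. Bgn (biglycan) was at 12.9, 14.0, 7.88 and 53.3 CPM in GDX and 7.04 to 11.2 CPM in E2, with GDX replicate 4 alone high (-1.21 ± 0.74, and -0.28 ± 0.23 without it). Of 16 genes for TGF-beta ligands and their binding proteins, which drive matrix production, edgeR called 0, with 3 at unadjusted p under 0.05 and 3 calls each from DESeq2 and limma-voom, and Tgfb1 and Tgfb2 had log2 fold changes of -0.19 ± 0.37 and 0.02 ± 0.34, and of 0.01 ± 0.36 and 0.43 ± 0.17 without GDX replicate 4.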

How the data were processed

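Values were expected counts per gene for every library, deposited by the authors, who used Trimmomatic 0.38, STAR 2.6.0a, RSEM 1.3.0 and build mm10 per the submitters' processing notes, which give no roles or order. The gene annotation is not given in the sources used here. Any decimal part was found in 33.1% of non-zero values, and all were rounded. Libraries were unstranded and polyA-selected, per the labels.

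Of 55384 identifiers, 55203 matched GENCODE vM21 on GRCm38, which supplied symbols, biotypes and exon lengths. In R 4.3.3, edgeR 4.0.16 fitted E2 against GDX by its quasi-likelihood test with TMM factors and robust dispersions. The filter filterByExpr (minimum count 10, minimum total 15) kept 18282 genes. Calls were made at a Benjamini-Hochberg adjusted p under 0.05 over all of them. CPM are rounded counts over effective library size. Log2 fold changes are E2 over GDX with their SE. Libraries are pools, so p-values measure spread between pools. A count of 3 equals 0.0818 to 0.101 CPM, which covers counting error only.

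Checked on simulated counts for this comparison over 18282 genes, edgeR found 60% of the changes planted at 2-fold and 79% of those at 4-fold, with 8.6% false among 152 calls. The same shares were 68%, 86% and 20.2% for DESeq2 1.42.0 and 57%, 75% and 5% for limma-voom (limma 3.58.1).

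The members, role groups, marker lists and lists of other matrix genes were chosen with earlier results of these data known. Named with values are the called genes, the 2 highest per length in each role group, the 8 with the largest ratio of highest library to the median of the others, the 3 most abundant fibroblast, endothelial and mural markers, and from each list of other genes up to 4 called and the first 2 not called. Of the genes counted, 1 is not reported here by name or drawn. Further genes were named after their values were seen. Alternatives covered scaling, filters, DESeq2, limma-voom, dispersions, the replicate number as a block, marker scores as covariates and leaving out each library. Library sizes without scaling factors, and leaving out GDX replicates 1 and 4 together, were added after the data were seen.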

Additional observations from a re-analysis of the deposited data

Results flagged for a closer look

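In 10 of 73 tested matrix genes, 1 of the 4 GDX libraries was separated from the other 3 by a gap above Dixon's 95% critical value, which chance gives in about 1 in 20 groups. That is 13.7% of them, against 5.83% of all genes tested. In each of the 10 it was GDX replicate 4, and it was the highest, as in 1.82% of all genes tested. Among fibrillar collagens these were Col1a1 (68.7 CPM, the others 4.7 to 7.88), Col1a2 (117 CPM, 12.9 to 18), Col3a1 (63.6 CPM, 1.68 to 7.51) and Col5a1 (14.8 CPM, 2.58 to 4.39). Among network and transmembrane collagens they were Col4a6 (10.6 CPM, 1.04 to 2.56), Col8a1 (7.26 CPM, 1.51 to 2.15) and Col13a1 (4.91 CPM, 0.736 to 0.973). The others were Thbs2 (22 CPM, 5.27 to 6.71), Dcn (42.7 CPM, 3.98 to 8.59) and Sparc (599 CPM, 468 to 484). The genes share these libraries and are not independent of each other. The summed level of the fibroblast markers was 635 CPM in the same library and 114 to 162 CPM in the other GDX libraries, and its part in these values was not tested.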

How the results depend on the processing

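Against 2 rises and 2 falls among matrix genes, 467 rises and 243 falls over all genes, 4 rises and 0 falls among the other matrix-related genes, and a matrix median of -0.386, these values moved, and the cause was not tested. With no low-count filter, 5 matrix genes rose and 9 fell, 722 and 887 over all genes, and 21 related genes fell. The matrix genes gained there were Col11a1, Col13a1, Col23a1, Col2a1, Col4a1, Col5a2, Col8a2, Fbln7, Lamb1 and Lum. With a mean of at least 5 CPM, 1 matrix gene rose, the median was -0.682 and 2 related genes fell. With DESeq2, 5 rose and 4 fell, 725 genes fell over all, and 7 related genes rose and 17 fell. With limma-voom, 4 rose and 4 fell, 398 fell over all, and 6 related genes fell. Of related genes, 1 fell with upper-quartile factors and without the robust option, and 2 without scaling factors. With the vascular marker score as covariate, 1 matrix gene fell, the median was 0.234, 138 genes fell over all, and 7 related genes rose. With the fibroblast score, 4 matrix genes rose, the median was -0.145, and 10 related genes rose and 7 fell. Without GDX replicates 1 and 4, 4 matrix genes rose, the median was -0.0307, and 7 related genes rose and 1 fell.

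The replicate numbers were not shown to pair the libraries: deviations of same-numbered GDX and E2 libraries correlated at -0.02, -0.038 and -0.055, and no number correlated best with itself. With the number as a block, 4 matrix genes rose, the median was -0.121 and 1 related gene fell. GDX replicate 4 has no partner there, so it adds nothing to that contrast, and Col1a1 (0.0169), Col3a1 (0.276), Lama5 (0.0785), Lamc3 (0.0214), Col11a2 (-0.00277) and Thbs3 (-0.0249) changed sign.

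Leaving out each library in turn gave 0 to 4 rises and 1 to 3 falls among matrix genes, 268 to 591 and 96 to 428 over all genes, 1 to 10 and 0 to 9 among related genes, and a median of -0.655 to -0.121. The fewest matrix calls, 1, were left without E2 replicate 1. Without GDX replicate 3, edgeR also called Col4a1. Scores of E2 minus GDX ranged over -0.795 to 0.141 for fibroblast, -0.113 to 0.0438 for microglia, -0.0844 to 0.367 for choroid plexus and 0.713 to 0.811 for kisspeptin cell markers. The last, 0.759 with exact p = 0.0286 in all libraries, cannot reach that p with 6. Choroid plexus markers were at -0.0113 with a prior count of 0.5.

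Sign changes were most frequent with the vascular covariate: Col1a1 (1.29), Col1a2 (0.814), Col3a1 (1.7), Col4a6 (1.08), Col6a5 (0.222), Col13a1 (0.418), Col15a1 (-0.324), Col18a1 (0.324), Lama2 (0.296), Lama5 (0.473), Lamc1 (0.17), Lamc3 (1.05), Hspg2 (0.054), Nid1 (0.505), Fbln1 (0.239), Fbln5 (0.324), Thbs3 (-0.23), Dcn (0.696), Fn1 (0.365), Lum (0.0327) and Sparc (0.0166), of which only Lamc3 was called (edgeR adjusted p = 0.0287). With the fibroblast covariate they were Col3a1 (0.0549), Lama5 (0.0325), Thbs3 (-0.000231) and Col11a2 (-0.00863). Without GDX replicates 1 and 4 they were Col1a1 (0.106), Col3a1 (0.0861), Col4a6 (0.205), Col15a1 (-0.107), Col18a1 (0.0368), Lama5 (0.226), Lamc3 (0.367) and Thbs3 (-0.113). Col11a2, near 0, was at -0.0049 with DESeq2 size factors, -0.017 with upper-quartile factors, -0.00414 unfiltered, -0.00658 at 5 CPM, -0.00491 with DESeq2, -0.0715 with limma-voom and -0.0608 without scaling factors. Leaving out 1 library in turn gave -0.094 to 0.145 for Col11a2, -0.00494 to 0.14 for Col9a2, -0.175 to 0.483 for Col6a1, -0.102 to 0.394 for Col15a1, -0.0497 to 0.205 for Thbs3, -2.35 to 0.134 for Col3a1 and -0.301 to 0.0675 for Lama5. Lamc3 was the only one of these genes called where its sign changed. The vascular score was higher in every GDX library than in every E2 library, so that fit cannot separate the score from treatment.

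Levels near the floor of 0.0818 to 0.101 CPM, as in Col10a1, do not allow a difference to be detected at this depth.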
